A study of Mus musculus with 6 samples.

Results

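The 9 genes described here encode the hormones, receptor, channel and transporters that set the balance of salt and water across the intestinal epithelium: Guca2a, Guca2b, Gucy2c, Cftr, Slc12a2, Slc4a4, Slc9a3, Slc26a3 and Slc26a6. They were taken by gene symbol from a table of 54012 genes, in which each of the 9 has 1 entry. Total RNA of mouse small intestine was sequenced from 3 animals labelled wild type (WT) and 3 labelled TLR4ΔIEC, in which the series title says intestinal TLR4 was depleted. The mice were 8 to 12 weeks old, and no treatment is named. TLR4 is the receptor for bacterial lipopolysaccharide. The driver of the deletion, the sex of the mice and the stretch of small intestine taken are not given in the sources used here. Levels are TPM, a share of all transcripts in the library corrected for gene length, so that levels of different genes can be set side by side.

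Guanylin (Guca2a) and uroguanylin (Guca2b) are small peptides that the epithelium releases into the lumen. They bind guanylate cyclase C, the product of Gucy2c, on the apical membrane, and the cGMP made there opens the chloride channel CFTR and inhibits the sodium-hydrogen exchanger NHE3, the product of Slc9a3. Chloride that leaves through CFTR enters the cell through the basolateral cotransporter NKCC1 (Slc12a2) and bicarbonate through NBCe1 (Slc4a4), while NHE3 works beside the anion exchangers DRA (Slc26a3) and PAT1 (Slc26a6) to absorb sodium chloride. Secretion is known as a task mainly of the crypts and absorption as one of the villi.

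The sequence before the start of 3 of these genes is shown, because Guca2a and Guca2b are neighbouring relatives of which only Guca2a had groups that did not overlap, and Slc9a3 was the member with lower levels in each library labelled TLR4ΔIEC. RefSeq promoter windows on GRCm38.p6 matched 7 of the 9 members, in 8 windows; Gucy2c and Slc12a2 did not match. Each sequence runs 5′ to 3′ on the gene's own strand: chr4:119637482-119637703 (plus) for Guca2a, chr4:119658955-119659195 (minus) for Guca2b and chr13:74121163-74121412 (plus) for Slc9a3. Those of Guca2a and Guca2b are cut where the gene's first GENCODE exon begins. That of Slc9a3 is the whole window of 250 bases, which ends before the gene's GENCODE start at 74121457. Capitals mark matches to the searched motifs.
Guca2a: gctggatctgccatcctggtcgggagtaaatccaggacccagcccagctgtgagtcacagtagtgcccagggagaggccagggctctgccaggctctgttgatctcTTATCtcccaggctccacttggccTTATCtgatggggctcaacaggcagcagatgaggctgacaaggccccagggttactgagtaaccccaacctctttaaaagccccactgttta
Guca2b: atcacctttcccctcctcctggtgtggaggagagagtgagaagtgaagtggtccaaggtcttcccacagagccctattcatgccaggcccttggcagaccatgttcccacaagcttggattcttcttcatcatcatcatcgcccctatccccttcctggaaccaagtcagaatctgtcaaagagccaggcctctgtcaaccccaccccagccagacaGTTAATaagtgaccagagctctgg
Slc9a3: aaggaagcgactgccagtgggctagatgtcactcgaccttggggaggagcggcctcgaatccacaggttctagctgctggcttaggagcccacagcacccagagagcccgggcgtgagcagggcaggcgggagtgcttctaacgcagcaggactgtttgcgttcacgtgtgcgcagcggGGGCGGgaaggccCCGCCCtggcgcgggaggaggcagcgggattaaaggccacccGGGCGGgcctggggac

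Both strands of the 250 bases before each RefSeq start were searched for 8 motifs. They were TATAAA for the TATA box, GGGCGG for Sp1, GATAA for GATA factors, TTTATG for CDX factors, GTTAAT for HNF1, CAAAGTCCA for HNF4, TGACGTCA for CREB and TGACG, which lies within the last. The Guca2a window held GATAA on the minus strand at −144 to −140 and at −120 to −116, counted back from the RefSeq start, and 22.6% of 32851 such windows held that motif. The Guca2b window held GTTAAT on the plus strand at −33 to −28, a motif in 6.43% of windows. Slc9a3 held GGGCGG on the plus strand at −71 to −66 and −16 to −11 and on the minus strand at −58 to −53, a motif in 32.7% of windows. Slc26a3 held, on the plus strand, GTTAAT at −94 to −89 and −84 to −79 and TATAAA at −30 to −25, the latter in 12.4% of windows. The Cftr window, with 30 CpG against a median of 6 over all windows, held GGGCGG at 6 positions. The shared letters describe these windows and say nothing of which factors bound there.

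Tlr4, the targeted gene, was examined first. It stood at 0.65, 0.57 and 0.70 TPM in WT against 1.29, 1.22 and 4.81 TPM under the TLR4ΔIEC label. The labelled loss of the receptor was therefore not visible in the tissue's Tlr4 level, and each direction given here compares libraries by their labels. Read totals are not kept in TPM, so the depth is unknown. The libraries had from 20031 to 21842 genes above 0, and the lowest number belonged to TLR4ΔIEC replicate 2. Of the 13458 genes whose mean reached 1 TPM, 16 (0.119%) differed at an adjusted p of 0.05 in limma, a linear model with spreads moderated across genes.

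All 9 members passed the filter on low values, and 0 of 9 differed between genotypes at an adjusted p of 0.05. At an unadjusted p under 0.05 in the same limma fit, 4 were higher in the libraries labelled TLR4ΔIEC (Guca2a, Gucy2c, Cftr and Slc26a6), where 18.4% of all tested genes were, and 1 was lower (Slc9a3), where 2.77% were. For Guca2a, Gucy2c and Cftr every library labelled TLR4ΔIEC lay above every WT library, as for 24.1% of all tested genes. For Slc9a3 every one lay below, as for 3.53%. With 3 against 3 libraries an exact two-sided permutation test of a single gene cannot go below p = 0.1. The median log2 fold change, TLR4ΔIEC minus WT on the log2(TPM + 1) scale, was 0.27 over the 9 members and 0.16 over all tested genes. In this bulk tissue, fewer cells of a type and less RNA per cell cannot be told apart.

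**Figure D1:**
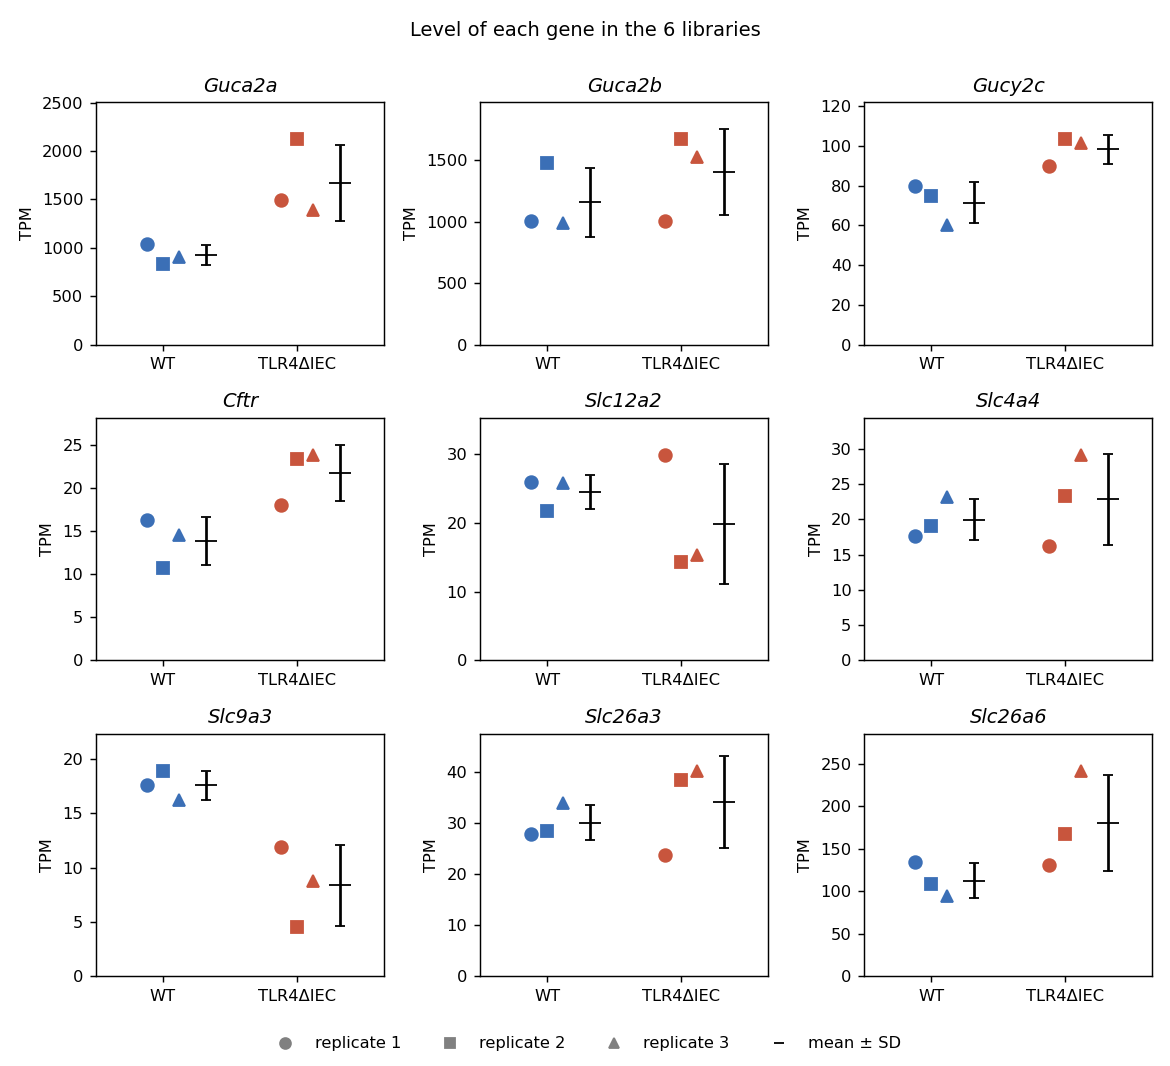
TPM (linear axes from 0) of each gene in the 3 WT (blue) and 3 TLR4ΔIEC (red) libraries, with symbols for the replicate numbers and the mean ± SD beside each group. The 3 red points lie above the 3 blue ones for Guca2a, Gucy2c and Cftr and below them for Slc9a3, and the groups overlap in the other 5 panels.

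The peptide hormones were by far the most abundant of these transcripts. Guca2a (ENSMUSG00000023247, GRCm38 chromosome 4, 119637704 to 119639471, plus strand) encodes guanylin and read 1035, 833 and 908 TPM in WT against 1495, 2121 and 1392 TPM under the TLR4ΔIEC label. The groups did not overlap: the lowest TLR4ΔIEC library was above the highest WT library, and replicate 2 stood highest of all 6. WT averaged 926 ± 102 and the other group 1669 ± 395 TPM (SD, n = 3 each), a ratio of 1.80. The log2 fold change was 0.83 (SE 0.22, 95% interval 0.31 to 1.35, limma adjusted p = 0.117), which did not pass.

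Guca2b (ENSMUSG00000032978, chromosome 4, 119656607 to 119658954, minus strand) encodes uroguanylin and lies 17135 bases from Guca2a with 0 protein-coding genes between them. Its levels were 1001, 1479 and 990 TPM in WT against 1006, 1670 and 1528 TPM under the TLR4ΔIEC label. The groups overlapped, since WT replicate 2 was above TLR4ΔIEC replicate 1. Its log2 fold change was 0.27 (SE 0.27, adjusted p = 0.614), with a 95% interval of −0.37 to 0.91 that takes in both no difference and one as large as that of Guca2a.

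Together the 2 hormones took 0.190% to 0.231% of all TPM in WT and 0.250% to 0.379% in the libraries labelled TLR4ΔIEC. Per TPM of their receptor gene Gucy2c the sum was 25.6 to 31.6 in WT and 27.8 to 36.7 in the libraries labelled TLR4ΔIEC, so that by this measure the groups overlapped.

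Gucy2c (ENSMUSG00000042638, chromosome 6, 136697284 to 136781765, minus strand), the guanylin receptor, read 79.7, 74.7 and 60.0 TPM in WT against 89.9, 103 and 102 TPM under the TLR4ΔIEC label. Its groups lay apart by a narrow margin, that between WT replicate 1 and TLR4ΔIEC replicate 1. WT averaged 71.5 ± 10.2 and the other group 98.2 ± 7.28 TPM (SD, n = 3 each). The log2 fold change of 0.46 (SE 0.15, 95% interval 0.10 to 0.82) had an adjusted p of 0.163 in limma.

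On the secretory side, Cftr (ENSMUSG00000041301, chromosome 6, 18170687 to 18322768, plus strand), the apical chloride and bicarbonate channel, read 16.2, 10.8 and 14.5 TPM in WT against 17.9, 23.3 and 23.8 TPM under the TLR4ΔIEC label. The groups did not overlap, with TLR4ΔIEC replicate 1 just above WT replicate 1. Its fold change on the log2 scale was 0.62 (SE 0.20, 95% interval 0.16 to 1.08, adjusted p = 0.152). Cftr shares 129 exonic bases with the antisense gene Gm15592, which was listed at 0 to 0.12 TPM.

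Slc12a2 (ENSMUSG00000024597, chromosome 18, 57878678 to 57946821, plus strand), the cotransporter that loads the cell with chloride, read 26.0, 21.7 and 25.9 TPM in WT. In the libraries labelled TLR4ΔIEC it read 29.9, 14.3 and 15.3 TPM, so replicate 1 was above all of WT and replicates 2 and 3 below it. This gave a log2 fold change of −0.37 (SE 0.28, 95% interval −1.02 to 0.29, adjusted p = 0.494). Without TLR4ΔIEC replicate 1 it was −0.69, and the adjusted p was 0.0661 (range over 19 alternatives 0.0661 to 0.747).

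Slc4a4 (ENSMUSG00000060961, chromosome 5, 88886818 to 89239653, plus strand), the basolateral sodium bicarbonate cotransporter, read 17.7, 19.0 and 23.2 TPM in WT against 16.2, 23.3 and 29.1 TPM under the TLR4ΔIEC label. Both the lowest and the highest of the 6 values were TLR4ΔIEC libraries. Its log2 fold change was 0.16 (SE 0.23, 95% interval −0.38 to 0.70), equal to the median of all genes, and turned negative under 3 other scalings of the libraries, when set against epithelial genes and without TLR4ΔIEC replicate 3.

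On the absorptive side, Slc9a3 (ENSMUSG00000036123, chromosome 13, 74121457 to 74169442, plus strand), the apical sodium-hydrogen exchanger NHE3, read 17.6, 18.9 and 16.3 TPM in WT against 11.9, 4.50 and 8.74 TPM under the TLR4ΔIEC label. The WT values lay within a narrow band and every TLR4ΔIEC value below it, with replicate 2 lowest. WT averaged 17.6 ± 1.33 and the other group 8.37 ± 3.69 TPM (SD, n = 3 each), so that WT was 2.10 times the other group. The log2 fold change was −1.07 (SE 0.30, 95% interval −1.78 to −0.36), the largest in size among the 9, and its limma adjusted p of 0.127 did not pass. Over 19 alternatives the value lay between −1.66 and −0.73, with an adjusted p of 0.0551 at the lowest and 0.380 at the highest.

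Slc26a3 (ENSMUSG00000001225, chromosome 12, 31390871 to 31473917, plus strand), the chloride-bicarbonate exchanger DRA, read 27.8, 28.4 and 34.0 TPM in WT against 23.7, 38.4 and 40.2 TPM under the TLR4ΔIEC label. As for Slc4a4, TLR4ΔIEC replicate 1 was the lowest library and replicates 2 and 3 were the highest, with the WT libraries in between. Its log2 fold change of 0.14 (SE 0.22, 95% interval −0.38 to 0.67) turned negative under each of 4 other scalings and against epithelial genes.

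Slc26a6 (ENSMUSG00000023259, chromosome 9, 108853283 to 108913049, plus strand), the anion exchanger PAT1, read 134, 109 and 94.3 TPM in WT against 131, 167 and 242 TPM under the TLR4ΔIEC label. Here the overlap was small, with WT replicate 1 just above TLR4ΔIEC replicate 1. WT averaged 113 ± 20.3 and the other group 180 ± 56.4 TPM (SD, n = 3 each). On the log2 scale the fold change was 0.64 (SE 0.25, 95% interval 0.05 to 1.23, limma adjusted p = 0.207).

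The same 5 genes took the first 5 places in both groups, with the hormones changing places. In WT the order by mean TPM was Guca2b, Guca2a, Slc26a6, Gucy2c, Slc26a3, Slc12a2, Slc4a4, Slc9a3 and Cftr. The ranges of neighbours in that order overlapped for Guca2b and Guca2a, for Slc12a2 and Slc4a4 and for Slc4a4 and Slc9a3. In the libraries labelled TLR4ΔIEC the order was Guca2a, Guca2b, Slc26a6, Gucy2c, Slc26a3, Slc4a4, Cftr, Slc12a2 and Slc9a3. There the ranges overlapped for the 2 hormones and for each neighbouring pair from Slc26a3 to Slc12a2, while Slc9a3 was last and lay apart from Slc12a2. Cftr was thus the lowest of the 9 in WT, and Slc9a3 in the libraries labelled TLR4ΔIEC. Over the 6 libraries Guca2a and Guca2b ranked 105 and 109 among all 54012 genes of the table by mean TPM, against 787 for Slc26a6, the next of the members, and 5792 for Slc9a3, the last.

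A ratio of 2 genes within a library is not changed by any single factor applied to that library. The ratio of Slc9a3 to Cftr was 1.08, 1.76 and 1.12 in WT and 0.661, 0.193 and 0.368 in the libraries labelled TLR4ΔIEC. Absorptive exchanger transcripts were thus above those of the secretory channel in each WT library and below them in each library labelled TLR4ΔIEC. The mean log2 ratios were 0.36 ± 0.39 and −1.47 ± 0.89 (SD, n = 3 each), a difference of −1.84. Since Slc9a3 lay below WT and Cftr above WT in each library, the ratio had to separate the groups, and it restates those levels.

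For Slc12a2 to Cftr the ratio was 1.60, 2.02 and 1.79 in WT and 1.67, 0.614 and 0.645 in the libraries labelled TLR4ΔIEC, where replicate 1 lay within the WT range and the other two well below it. Guca2a to Guca2b stood at 1.03, 0.563 and 0.918 in WT and 1.49, 1.27 and 0.911 in the libraries labelled TLR4ΔIEC, with TLR4ΔIEC replicate 3 inside the WT range. The Gucy2c to Cftr ratio did not separate the groups, at 4.15 to 6.94 in WT and, within that range, 4.27 to 5.01 in the libraries labelled TLR4ΔIEC. Slc26a3 to Slc26a6 ran from 0.207 to 0.361 in WT and from 0.166 to 0.230 in the libraries labelled TLR4ΔIEC.

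**Figure D2:**
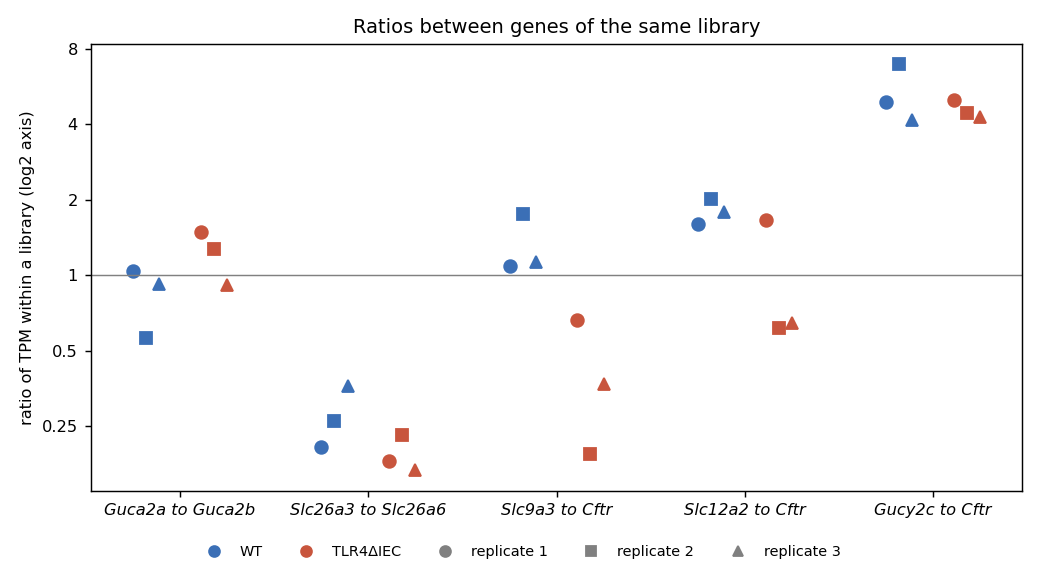
Ratio of the TPM of 2 genes within each library (log2 axis), WT in blue and TLR4ΔIEC in red, with symbols for the replicate numbers. For Slc9a3 to Cftr the 3 WT ratios lie at 1.08 or above and the 3 TLR4ΔIEC ratios at 0.661 or below, and the other 4 ratios overlap.

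Epithelial genes as a list also stood higher in the libraries labelled TLR4ΔIEC, though 0 of them passed the threshold. All 8 of a list of pan-epithelial genes, among them the adhesion molecules Epcam and Cdh1, had positive fold changes (median 0.60), as did 68.1% of all tested genes, and for 7 every TLR4ΔIEC library lay above WT, as for 24.1% of all. Their summed level was 7483 to 8584 TPM in WT and 10492 to 14050 TPM in the libraries labelled TLR4ΔIEC. Setting each library against the mean of those 8 genes lowers every fold change by the same 0.59 on the log2 scale, so that any gene below that value turns negative, and the median of all genes moved from 0.16 to −0.44. The log2 fold change became 0.24 for Guca2a, 0.03 for Cftr, 0.05 for Slc26a6, −0.13 for Gucy2c, −0.96 for Slc12a2 and −1.66 for Slc9a3. Under this scaling Guca2a lay apart upwards, as did 1.48% of all tested genes, and Slc9a3 and Slc12a2 lay apart downwards, as did 37.0%. Where TPM was rescaled by the median of ratios, which moved the median of all genes to 0.03, Guca2a (0.68) lay apart upwards, as did 10.8% of all tested genes, and Slc9a3 (−1.21) downwards, as did 8.45%. Gucy2c and Cftr overlapped there. The same pair of genes was left by quantile normalization and by leaving out alpha-defensin, mitochondrial and 18S-like genes.

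**Figure D3:**
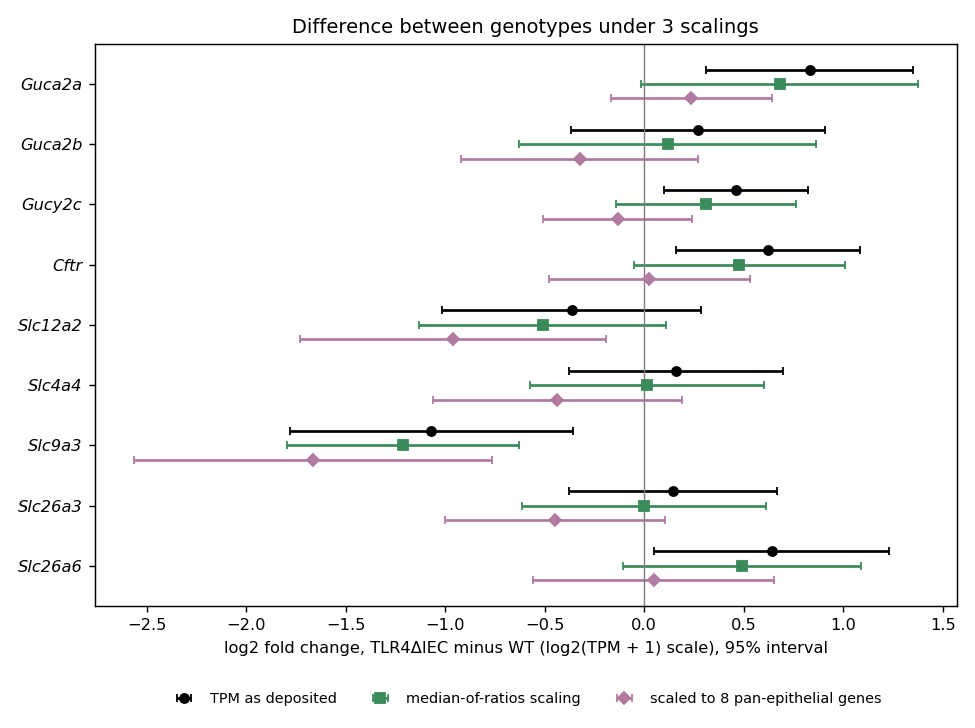
Log2 fold change, TLR4ΔIEC minus WT on the log2(TPM + 1) scale, with the 95% interval of the limma fit, for TPM as deposited (black), after median-of-ratios scaling (green) and set against 8 pan-epithelial genes (purple). Every purple point lies 0.59 below its black one, which takes Guca2a from 0.83 to 0.24 and Slc9a3 from −1.07 to −1.66.

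Marker lists of other cell types and of gut regions gave further measured differences, whose part in the members' values was not tested. The 7 Paneth cell genes were all negative (median −1.72), with a summed level of 74433 to 83466 TPM in WT and 12468 to 50675 TPM in the libraries labelled TLR4ΔIEC. The 7 goblet cell genes were all positive (median 0.93, sums of 9555 to 10944 and 16430 to 25631 TPM). Of 7 genes of crypt stem and dividing cells, 6 were negative (median −0.41, sums of 301 to 315 and 133 to 293 TPM). The 8 absorptive enterocyte genes had a median of 0.27, with sums of 16148 to 19225 and 19570 to 24036 TPM. Of these 6 were positive and 2 negative, the latter being Fabp2 and Slc5a1 (log2 fold changes −0.71 and −0.42). Of 8 genes typical of the proximal small intestine 7 were negative (median −2.26, sums of 994 to 2356 and 452 to 638 TPM), and Lct and Gata4 passed the threshold. Of 6 ileal genes 5 were positive (median 1.21, sums of 3327 to 8229 and 11060 to 36796 TPM), so that the region of gut sampled and the genotype label cannot be told apart here. A colon list of 7 genes had 5 tested, of which 4 were positive and 1, Retnlb, negative (median 0.80). Its sums were 531 to 603 TPM in WT and 1244 to 1965 TPM in the libraries labelled TLR4ΔIEC. The 6 smooth muscle genes overlapped between groups (sums of 267 to 712 and 186 to 673 TPM). The 5 B and plasma cell genes summed to 4515 to 5408 TPM in WT and 573 to 2114 TPM in the libraries labelled TLR4ΔIEC (median −1.29). Igha alone made up most of each sum. Signs were mixed in this list, with 3 genes negative (Igha, Jchain and Tnfrsf17) and 2 positive. The positive ones were Cd79a and Ms4a1 (log2 fold changes 0.36 and 0.99), and their groups overlapped. No gene of these lists was listed at 0 in all 6 libraries, and neurons and glia were nearly absent, with summed levels of 3.09 to 5.63 TPM in all.

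TLR4ΔIEC replicate 1 was the one nearest to the WT mean of the 3 TLR4ΔIEC libraries in 7 of the 9 members. Without it all 9 members separated completely from WT, 7 upwards and 2 (Slc12a2 and Slc9a3) downwards, where 46.2% of all tested genes separated in the same 3 against 2 libraries. Even so 0 of 9 passed the threshold, with the smallest adjusted p at 0.0551 for Slc9a3.

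Other genes of ion and water transport were read from a list of 62, of which 51 passed the filter. In limma 0 of these 51 differed at an adjusted p of 0.05, and 11 were higher and 6 lower at an unadjusted p under 0.05. Over all tested genes the shares by that p were 18.4% and 2.77%. In 14 of the 51 (27.5%) the TLR4ΔIEC libraries all lay above WT, against 24.1% of all tested genes, and in 7 (13.7%) all below, against 3.53%. The median log2 fold change of 0.16 was that of all genes. These counts depended on the scaling and the filter. Under median-of-ratios scaling 4 lay above and 12 below (10.8% and 8.45% of all tested genes). Set against epithelial genes, 2 lay above and 25 below (1.48% and 37.0% of all). Where the mean had to reach 5 TPM, 14 of 44 lay above and 4 below (31.9% and 2.90% of all).

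The apical partners of Slc9a3 did not share its direction. Slc9a2, the exchanger NHE2, read 54.5, 46.8 and 46.6 TPM in WT against 85.2, 93.7 and 70.2 TPM under the TLR4ΔIEC label, with no overlap, and its log2 fold change was 0.73 (SE 0.16, adjusted p = 0.0955). Slc34a2, the sodium phosphate cotransporter NaPi-IIb, stood at 136, 51.7 and 67.9 TPM in WT and was again higher in each of the others, at 155, 236 and 284 TPM (log2 fold change 1.47, SE 0.38, adjusted p = 0.115). All 4 tested genes of this subgroup were positive (median 0.66), with 2 of them below the 0.59 by which scaling to epithelial genes lowers each value.

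Slc9a3 is held at the brush border by scaffold proteins with PDZ domains. Of 7 such genes and regulators of NHE3, 5 were positive (median 0.34), and 0 passed. Slc9a3r1, the scaffold NHERF1 and the most abundant of them, averaged 903 ± 63.7 and 1180 ± 316 TPM (SD, n = 3 each) and had a log2 fold change of 0.36. Pdzk1, a further scaffold, read 133, 99.0 and 110 TPM in WT against 138, 206 and 274 TPM under the TLR4ΔIEC label (log2 fold change 0.80, SE 0.26, adjusted p = 0.160). Each TLR4ΔIEC library was above each WT library for both, for Slc9a3r1 only by 970 against 963 TPM. Slc9a3r2, the scaffold NHERF2 and chosen after its values were seen, had the opposite sign, at 14.3 TPM on average in WT and 7.77 TPM under the TLR4ΔIEC label (log2 fold change −0.87). Under median-of-ratios scaling 0 of the 7 lay apart upwards and 2 downwards, where 10.8% and 8.45% of all tested genes did. Set against epithelial genes, 5 of the 7 were negative (median −0.25, and −0.44 over all genes).

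Genes of basolateral ion transport and potassium channels, which serve both absorption and secretion, showed small values as a group. Of the 9 tested, 5 were positive and 4 negative, and their median of 0.13 turned negative under each other scaling.

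Among other chloride channels, Ano6, a calcium-activated scramblase and channel, read 82.0, 104 and 91.6 TPM in WT against 33.7, 56.1 and 55.2 TPM under the TLR4ΔIEC label. The groups lay well apart, with a log2 fold change of −0.95 (SE 0.22, adjusted p = 0.106). It was the most abundant of the 4 genes in this subgroup and the one with the smallest p.

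In the subgroup of cGMP and cAMP signalling 9 of 12 tested genes were positive (median 0.14, and 0.01 or below under the other scalings). Gnas, which encodes the stimulatory G protein subunit upstream of cAMP, had a log2 fold change of 0.39. Pde4d, a cAMP phosphodiesterase, read 8.75, 6.04 and 8.18 TPM in WT against 13.3, 12.9 and 13.9 TPM under the TLR4ΔIEC label, a tight group above all of WT (log2 fold change 0.75, SE 0.17, adjusted p = 0.101). In 4 of the 12 every TLR4ΔIEC library lay above WT, as for 24.1% of all tested genes, and in 3 every one lay below, as for 3.53%. The 3 that lay below are named here with their values already known. Adora2b, an adenosine receptor that raises cAMP, read 1.31, 5.04 and 1.99 TPM in WT against 0.35, 0.13 and 0.19 TPM under the TLR4ΔIEC label, the largest negative value among the 51 (log2 fold change −1.51, SE 0.38, adjusted p = 0.112). At such low levels the size hung on the pseudocount, with −2.99 at 0.1 TPM and −0.55 at 5 TPM. Vipr1, a receptor for vasoactive intestinal peptide, and Npr1, a natriuretic peptide receptor that makes cGMP, had log2 fold changes of −0.37 and −0.51. Adora2b and Npr1 averaged 0.22 and 0.86 TPM under the TLR4ΔIEC label, and passed the filter of 1 TPM through WT, at 2.78 and 1.64 TPM. Where the mean had to reach 5 TPM, 1 of 10 tested genes of this subgroup lay below, as did 2.90% of all tested genes. Prkg2, the membrane-bound kinase that passes the cGMP signal to CFTR and NHE3, was chosen after its values were seen. It read 5.53, 5.53 and 5.26 TPM in WT against 4.94, 3.61 and 10.2 TPM under the TLR4ΔIEC label, with a log2 fold change of 0.07 and a 95% interval of −0.69 to 0.82.

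Of the 3 subunits of the epithelial sodium channel, Scnn1b and Scnn1g were at 0 to 0.06 TPM in all 6 libraries and Scnn1a at 2.94 to 5.12 TPM. Of the 4 tested genes of that subgroup, Sgk1, a kinase of the aldosterone response, had a log2 fold change of 0.35. Hsd11b2, the enzyme that shields the mineralocorticoid receptor from glucocorticoids, read 17.0, 7.88 and 6.41 TPM in WT against 26.1, 32.4 and 11.8 TPM under the TLR4ΔIEC label, with overlapping groups (log2 fold change 1.10, adjusted p = 0.224).

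Of the 5 tested water channels 3 were negative. Aqp3, a basolateral channel for water and glycerol, read 9.86, 12.1 and 9.71 TPM in WT against 1.63, 4.05 and 4.48 TPM under the TLR4ΔIEC label, so that WT was 3.12 times the other group (log2 fold change −1.46, SE 0.30, adjusted p = 0.0940). Aqp1, a water channel found in vessel walls among other sites, read 114, 121 and 98.4 TPM in WT against 58.8, 65.7 and 81.0 TPM under the TLR4ΔIEC label (log2 fold change −0.70, adjusted p = 0.108). For both genes the groups lay apart. The 4 genes of the endothelial marker list were also negative (median −0.43, sums of 22.9 to 33.1 and 12.7 to 30.4 TPM), and their part in the Aqp1 value was not tested. Aqp8 was listed at 0 in each library.

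Carbonic anhydrases supply the bicarbonate and protons that these exchangers trade. Car12, a membrane-bound member, read 6.50, 4.39 and 3.84 TPM in WT against 13.1, 34.8 and 15.5 TPM under the TLR4ΔIEC label, the largest positive value in the list (log2 fold change 1.80, SE 0.37, adjusted p = 0.0940). Car4, the most abundant member, gave a log2 fold change of 0.42 (adjusted p = 0.205). Of the 6 tested, 3 were positive and 3 negative. Without TLR4ΔIEC replicate 1, Car12, Aqp3 and the NHE3 regulator Pdzd3 passed the threshold in limma, and with array weights Car12 did. In those fits 367 of 13379 and 136 of 13458 tested genes passed, against 16 with all 6 libraries weighted alike.

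**Figure D4:**
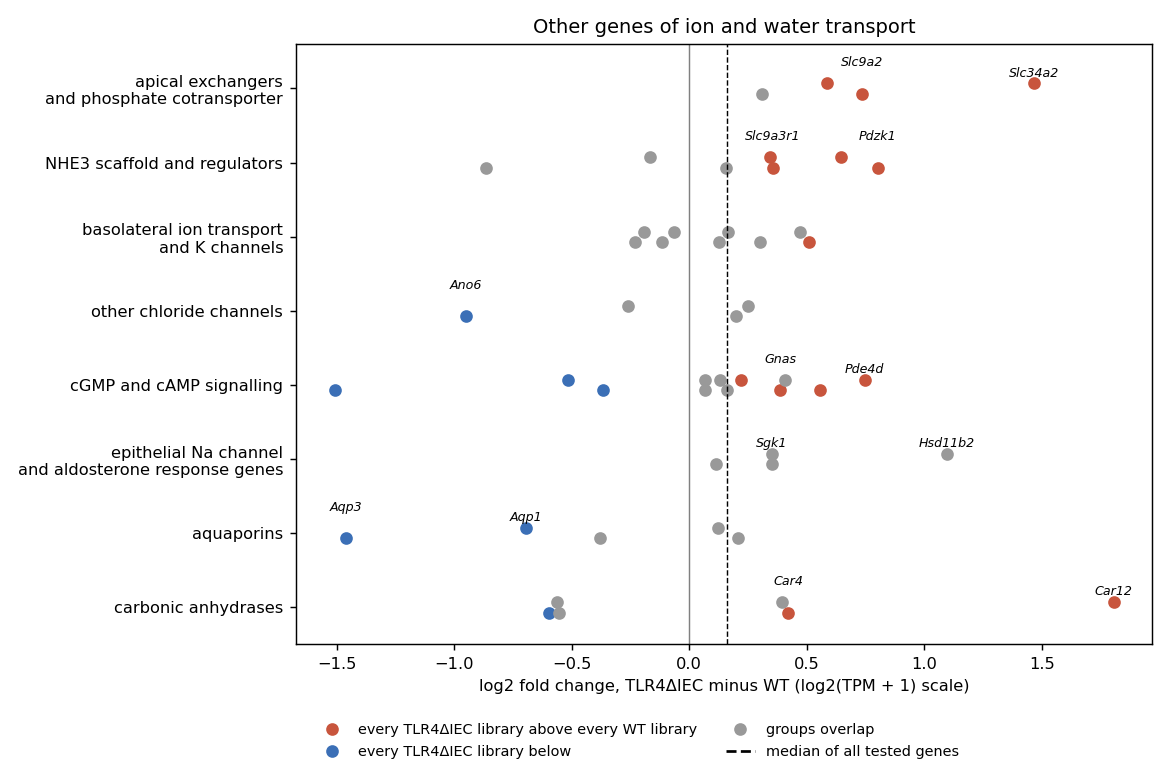
Log2 fold change, TLR4ΔIEC minus WT on the log2(TPM + 1) scale, of the 51 tested genes of ion and water transport by subgroup, each point a gene. Red and blue points are genes whose TLR4ΔIEC libraries all lie above or all below WT, grey ones overlap, and the dashed line is the median of all genes at 0.16. Car12 (1.80) and Slc34a2 (1.47) lie farthest to the right and Aqp3 (−1.46) is among the farthest to the left.

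Genes with profiles like those of the members over the 6 libraries were sought among 6220 named genes whose mean reached 10 TPM. Likeness was the root mean square difference of the centred log2(TPM + 1) values, and with 6 libraries many genes come close. Nearest to Guca2a were Nfkbib (0.0669) and Plec (0.0678), to Guca2b Lsm6 (0.0891) and Mrps36 (0.0964), to Gucy2c Zfp410 (0.0123) and Rhog (0.0227), and to Cftr Rell1 (0.0441) and Igsf9 (0.0681). For Slc9a3 the nearest were Apol7c at 21.2, 20.9 and 20.2 TPM in WT against 16.7, 6.88 and 10.6 TPM under the TLR4ΔIEC label (0.131) and Jaml (0.163). Slc4a4 and Slc26a3 had Pank3 in common (0.0430 and 0.0645), beside Fam8a1 (0.0555) and Mfsd11 (0.0461). Slc12a2 was closest to Eif2a (0.135) and Clic4 (0.151), and Slc26a6 to Cyba (0.103) and Mgat4b (0.115). None of the 9 was among the nearest genes of another.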

How the data were processed

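Per the file headers, the authors deposited TPM for each gene and library, with fastp, HISAT and RSEM as tools (no versions) and GRCm38.p5 as build per the submitters' processing notes. The sources used here give no strand setting. TPM sum to the same total in each library, so a gene that takes a large share lowers the others. The deposited gene lengths and the authors' group means were not used in any test. Groups and replicate numbers come from the titles. Genes whose mean reached 1 TPM were fitted on the log2(TPM + 1) scale in limma 3.58.1 (R 4.3.3, intensity trend, genotype only, two-sided, Benjamini-Hochberg over all 13458 genes at 0.05), and the fit was tested on simulated data. Single genes were compared by exact permutation of the libraries. Coordinates are those of GENCODE M21 (GRCm38). The members and lists were chosen with earlier results of these data known. Besides the members, each subgroup's most abundant gene and the one with the smallest p were named, and exceptions are said to be chosen later; the named genes of 1 subgroup are not reported here. Alternatives changed the pseudocount, filter, scaling, moderation, weights, replicate block or 1 library at a time. Figures were drawn with matplotlib 3.10.9.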

Additional observations from a re-analysis of the deposited data

How the results depend on the processing

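With 3 libraries a genotype, 0 of 9 members passed the threshold in limma under each of 19 alternatives, and 5 of these (the filters, the moderation settings and the replicate block) leave each fold change as it was. Under the other 14, 113 of 126 fold changes kept their sign. The exceptions were Guca2b without alpha-defensin, mitochondrial and 18S-like genes (−0.055), Guca2b (−0.33), Gucy2c (−0.13), Slc4a4 (−0.44) and Slc26a3 (−0.45) when scaled to the pan-epithelial list, Slc4a4 and Slc26a3 under quantile normalization (−0.086 and −0.13), without the 20 highest genes (−0.0086 and −0.025) and without alpha-defensin, mitochondrial and 18S-like genes (−0.15 and −0.17), and Slc26a3 under median-of-ratios scaling (−0.0011). Leaving out 1 library gave Slc4a4 −0.028 (without TLR4ΔIEC replicate 3) to 0.38. The causes were not tested. The 4 members whose groups did not overlap became 2 under quantile normalization, under median-of-ratios scaling and without alpha-defensin, mitochondrial and 18S-like genes (19.6%, 19.2% and 18.9% of all tested genes, against 27.6% with deposited TPM), and 4 to 9 with 1 library left out (33.4% to 46.2% of all), 9 without TLR4ΔIEC replicate 1. Of the 62 other transport genes, 0 passed with deposited TPM, 1 with array weights and 0 to 3 with 1 library left out, 3 without TLR4ΔIEC replicate 1. Over all genes, the 16 calls (6 higher, 10 lower) became 0 with no filter (3377 had an unadjusted p under 0.05), 7 where the mean had to reach 5 TPM, 136 with array weights and 0 to 367 with 1 library left out (367 without TLR4ΔIEC replicate 1, 32 without WT replicate 1, 5 without TLR4ΔIEC replicate 3, 3 without WT replicate 3, 0 without WT replicate 2 or TLR4ΔIEC replicate 2, where 1681 and 2651 had an unadjusted p under 0.05). The split was 3 higher and 15 lower under median-of-ratios scaling and 2 and 22 against epithelial genes. With the replicate number as a block 1 gene passed and 0 members. Deviations of same-numbered libraries correlated at −0.037, 0.035 and 0.118 over genes. WT replicate 1 correlated best with TLR4ΔIEC replicate 2 (0.106), while WT replicates 2 and 3 each correlated best with the library of their own number. As deviations from means of 3 libraries, these values cannot show whether same-numbered libraries share more than a number. Depth cannot be read from TPM.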
